A study of Mus musculus with 18 samples.

Results

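The autosomal genes Eya1, Ikzf2, Pea15a, Adm, Sdk1, Ugt8a, Vcam1, Fam115a, Cftr and Skida1 were compared among 3 immortalized mouse progenitor lines. Each is nearly silent, or for Vcam1 low, in at least 1 line and expressed in another. They are 10 of 24062 gene symbols in the deposited count table. They were chosen on their ethanol libraries, so the differences between lines in ethanol are given as a description without a test. The same differences were tested in the libraries treated with 4-hydroxytamoxifen (4OHT), which the rule of choice did not use. Those libraries come from the same lines, and the genes were chosen with earlier results of these data known. The tests are thus not an independent check of the choice.

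The cells are lineage-negative mouse bone marrow cells immortalized with a retrovirus carrying the leukemia fusion MLL-AF9, and kept in medium with interleukin-3, stem cell factor and interleukin-6. All 3 lines carry a Rosa-CreERT transgene, a Cre recombinase that 4OHT activates, and they differ in the gene for the RNA helicase Ddx41. The line labelled WT is +/+, the line labelled Het is +/flox, and the line labelled FF is flox/flox. Each line received 1 µM 4OHT or ethanol (EtOH) for 48 h, with 3 libraries, lettered A to C, in each of 6 groups, 18 in all. WT holds no floxed allele for Cre to delete. The labels give neither the number of lines behind a genotype nor whether letters are separate cultures. A difference between lines and a difference between genotypes cannot be told apart here, and p-values measure the spread between these libraries only, which may be technical.

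By role, 3 of the genes encode nuclear factors. Eya1 is a coactivator and phosphatase that acts with homeodomain proteins of the Sine oculis family in ear and kidney development. Ikzf2 (Helios) is a zinc-finger factor of the Ikaros family, known from T cells and from leukemic cells, and Skida1 holds a SKI/DACH domain. Pea15a is a small death-effector-domain protein that keeps ERK kinases in the cytoplasm and binds FADD, and Adm is the secreted vasodilator adrenomedullin, a known hypoxia target. Vcam1 and Sdk1 are immunoglobulin-domain adhesion proteins, the former bound by integrins with the Itga4 chain. Cftr is the chloride channel of epithelia, Fam115a (now Tcaf1) a protein associated with the cold-sensing channel TRPM8, and Ugt8a the galactosyltransferase that makes galactosylceramide of myelin.

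In the 18 libraries 24730213 to 49277884 counts were assigned to genes, and 1 count corresponded to 0.0203 to 0.0404 CPM (counts divided by the library total and set to the usual common total). Levels below are CPM after TMM scaling, which sets libraries to a common scale. Ddx41 itself was at 14.6 to 17.7 CPM in FF_4OHT, against 73.7 to 112 in FF_EtOH, 41.3 to 58.4 in Het_4OHT and 68.0 to 93.0 in the WT and Het_EtOH libraries. Of the blood markers, Ptprc was at 227 CPM or more, Spi1 at 132 or more, Kit at 56.9 or more and the granule protease Elane at 2091 or more in every library. The stem and progenitor markers Cd34 and Flt3 were low: Cd34 was at 4.93 CPM or less, and Flt3 at 2.35 or less in WT and FF and 4.95 to 6.54 in Het. The granule enzyme Mpo was at 2441 to 3790 CPM in WT_EtOH, 601 to 2181 in FF_EtOH and 64.7 to 136 in Het. The library Het_4OHT A had the lowest mean correlation with its own group, 0.959.

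A pair of libraries went against their labels, so the tests of the 10 genes and the counts over each list are given with and without them. They were set apart on the values of these same genes, so p-values and counts without them are not independent of that choice. Ikzf2 was at or near 0 in WT and FF and does not separate them, which leaves 9 genes. In the library labelled FF_EtOH C, 8 of these 9 lay nearer to the WT line than to the other 5 FF libraries, Adm being the exception, and 6 lay within the WT range. In the library labelled WT_4OHT C, all 9 lay nearer to FF than to the other 5 WT libraries, and 4 lay within the FF range. Adm, counted here, hardly separates WT (0) from FF (0 to 0.166 CPM). At 1.31 CPM in this library it lay above both ranges. The Y-linked gene Eif2s3y, which was not among the 10, divided the libraries the same way. It had no count in 5 of the FF libraries, nor in the one labelled WT_4OHT C. It reached 86.3 CPM in letter C of FF_EtOH, where 5 WT libraries spanned 66.4 to 101 CPM. Other Y-linked genes did not: Ddx3y was at 28.9 CPM or more and Uty at 11.6 CPM or more in all 18 libraries. Letter C of FF_EtOH had 73.7 CPM of Ddx41, which does not tell the lines apart in ethanol. Letter C of WT_4OHT had 93.0 CPM, above the 14.6 to 17.7 CPM of FF_4OHT and within the range of FF_EtOH. Whether the labels of these libraries were exchanged was not tested, and cannot be settled from the files used here.

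**Figure D1:**
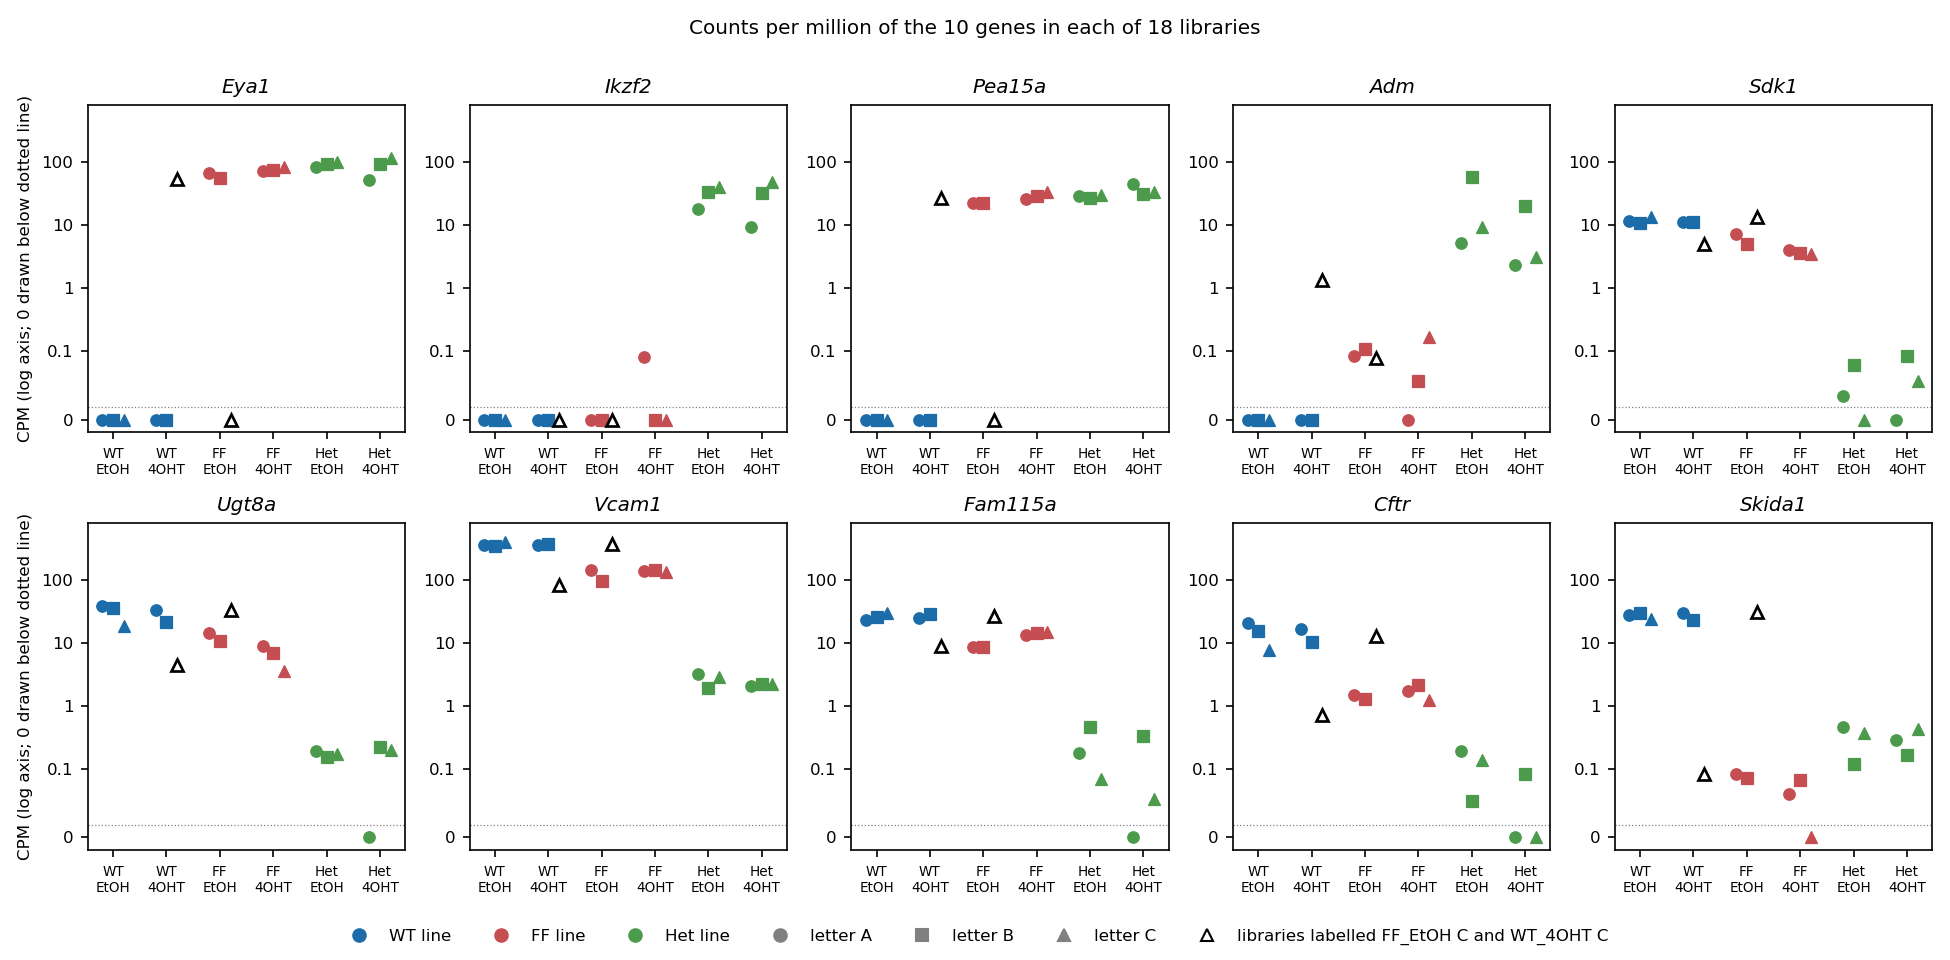
Level of each gene (CPM, log axis, with 0 drawn below the dotted line) in each of 18 libraries, by line and treatment, with a symbol for each letter. Eya1 and Pea15a were at 0 in the 5 filled WT libraries, while the open symbols, letter C of FF_EtOH and of WT_4OHT, lay nearer to the other line for 8 and for 9 of the 9 genes other than Ikzf2. Adm, counted among the 9, lay above both lines in letter C of WT_4OHT.

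The genes lie on 6 chromosomes in GRCm38 (GENCODE M21). On chromosome 1 are Eya1 (14168954 to 14310235, minus strand), Ikzf2 (69531214 to 69687245, minus) and Pea15a (172196728 to 172206804, minus). Chromosome 2 holds Skida1 (18040676 to 18049051, minus), chromosome 3 Vcam1 (116109949 to 116129688, minus) and Ugt8a (125865271 to 125938619, minus), and chromosome 5 Sdk1 (141241490 to 142215586, plus). Chromosome 6 holds Cftr (18170687 to 18322768, plus) and Fam115a (42668002 to 42710088, minus), and chromosome 7 Adm (110627661 to 110629820, plus). All are annotated as protein coding, and no 2 of them are neighbours.

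RefSeq start-site windows (GRCm38.p6) were found for 6 of the 10 genes, and 4 are shown because they cover each direction of the line differences: Pea15a, silent in WT, Adm, expressed in Het, and Sdk1 and Ugt8a, nearly silent in Het. The CG pairs, the sites of DNA methylation in promoters, are in capitals, each sequence is the strand of its gene read 5′ to 3′, and it ends next to the annotated start or first exon. The stretches are chr1:172206805-172207054 (minus strand) for Pea15a, chr7:110627407-110627656 (plus) for Adm, chr5:141241284-141241489 (plus) for Sdk1, and chr3:125938653-125938902 (minus) for Ugt8a.
Pea15a: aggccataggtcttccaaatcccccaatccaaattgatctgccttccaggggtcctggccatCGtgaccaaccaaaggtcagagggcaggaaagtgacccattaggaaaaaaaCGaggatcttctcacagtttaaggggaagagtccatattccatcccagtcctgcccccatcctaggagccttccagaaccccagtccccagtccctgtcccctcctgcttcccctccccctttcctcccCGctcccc
Adm: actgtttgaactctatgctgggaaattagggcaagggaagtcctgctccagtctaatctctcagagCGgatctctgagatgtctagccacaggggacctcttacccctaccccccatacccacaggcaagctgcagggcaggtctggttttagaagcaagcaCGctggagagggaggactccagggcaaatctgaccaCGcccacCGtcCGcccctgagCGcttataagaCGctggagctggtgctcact
Sdk1: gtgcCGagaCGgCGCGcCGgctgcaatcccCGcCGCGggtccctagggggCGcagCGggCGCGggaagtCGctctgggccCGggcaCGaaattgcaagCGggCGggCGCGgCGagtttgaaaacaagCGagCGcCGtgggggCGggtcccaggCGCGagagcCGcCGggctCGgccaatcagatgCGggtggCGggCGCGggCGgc
Ugt8a: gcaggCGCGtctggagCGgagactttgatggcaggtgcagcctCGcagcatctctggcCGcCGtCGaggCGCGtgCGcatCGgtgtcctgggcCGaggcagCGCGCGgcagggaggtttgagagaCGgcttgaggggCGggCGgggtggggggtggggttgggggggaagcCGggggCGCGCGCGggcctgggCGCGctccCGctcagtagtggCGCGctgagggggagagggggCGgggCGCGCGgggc

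These upstream stretches differ widely in CG content. Within the 250 bases before the start site Pea15a has 3 CG pairs, Fam115a 4 and Adm 7, whereas Cftr has 30, Ugt8a 32 and Sdk1 44 (for Sdk1, 44 of the 250 bases overlap an annotated exon and are not shown). Of the 32851 windows in the table, 71.0% hold at least as many pairs as Pea15a, 62.2% as Fam115a and 46.3% as Adm. The shares were 5.9% for Cftr, 4.6% for Ugt8a and 0.5% for Sdk1. Genes silent or nearly silent in a line thus had either kind of upstream sequence. Pea15a in WT and Fam115a in Het had few CG pairs, and Sdk1, Ugt8a and Cftr in Het had many. The letters TATAA, on either strand, occur at 1 place in the Adm window, where they read on both strands, and at 1 place in that of Fam115a, and in 22.8% of all windows. GCGTG, which is among the core letters of hypoxia response elements, occurs 2 times each for Adm and Cftr and 1 time each for Sdk1 and Ugt8a (28.2% of windows). ACGTG was found in none of the 6, and in 16.6% of windows. No methylation or binding was measured in these cells.

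The 10 genes fell into 4 patterns over the lines, apart from the pair of libraries named above. Eya1 and Pea15a were off in WT and on in FF and Het. Ikzf2 and Adm were on in Het only among these lines. Vcam1, Sdk1, Ugt8a, Fam115a and Cftr were highest in WT, lower in FF and lowest in Het. There all of them but Vcam1, at 1.92 to 3.19 CPM, were at or near 0. Skida1 was on in WT only. These patterns describe what chose the genes. As a measure of how common they are, 180 of 22536 autosomal genes (0.799%) had a median ethanol CPM under 1 in the lowest line and of at least 5 in the highest. Of the 10 genes, 9 met this form. Vcam1 did not, since its Het median in ethanol was 2.83 CPM. Nearest to the limits from inside were Fam115a, at 0.174 CPM in its lowest line, and Adm, at 9.30 CPM in its highest.

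**Figure D2:**
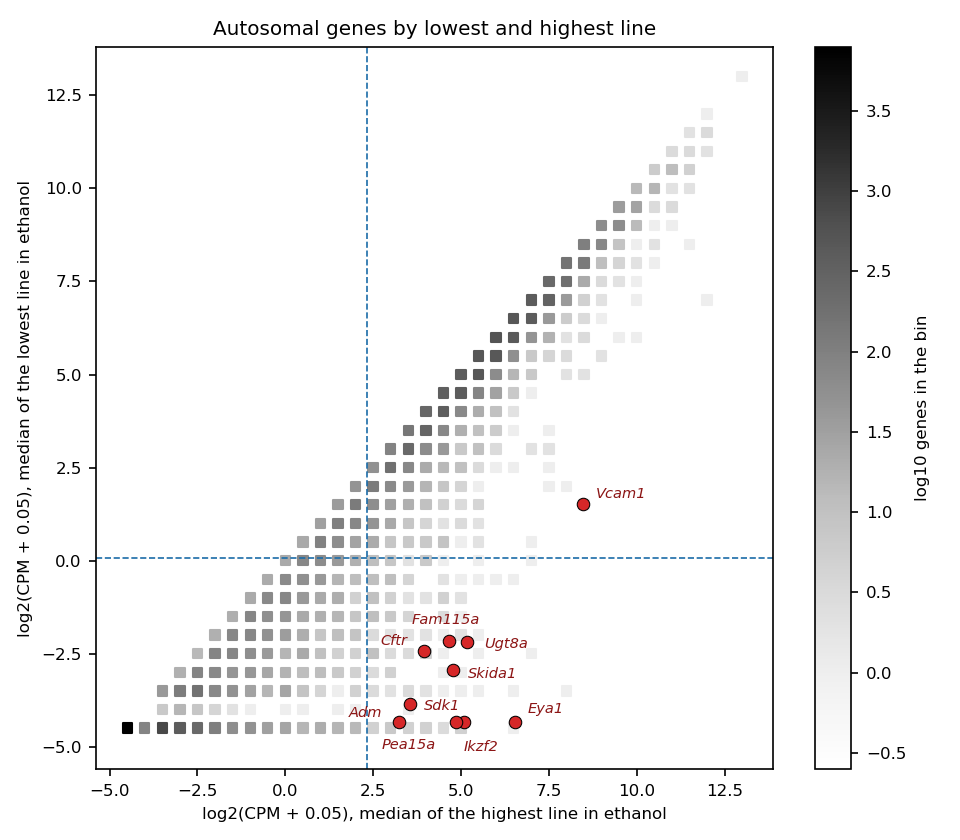
Median ethanol level of every autosomal gene in its lowest line (vertical axis) against its highest line (horizontal axis), both as log2(CPM + 0.05), with the number of genes in each grey bin on a log10 scale and the 10 genes as red points. Dashed lines mark 1 and 5 CPM; 9 of the 10 genes, all but Vcam1, lie in the lower right field that holds 180 of 22536 genes.

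Eya1 was at 0 counts in all 5 WT libraries apart from the one labelled WT_4OHT C, which is a level of at most 0.0190 CPM as the limit that 0 counts allow. In FF it was at 65.8 (A), 55.2 (B) and 0 (C) CPM in ethanol and at 70.8, 73.3 and 82.3 CPM in 4OHT. In Het it was at 81.8, 93.2 and 99.3 CPM in ethanol and 52.4, 92.9 and 115 CPM in 4OHT. The library labelled WT_4OHT C was at 54.6 CPM, just under the lowest of the other FF libraries, and the library labelled FF_EtOH C had no count in 27200165. Without that pair, Eya1 in 4OHT was at least 1640-fold higher in FF than in WT and at least 1895-fold higher in Het, against a floor of 3 counts over the WT group. The edgeR adjusted p was 2.27e-07 for FF minus WT and 7.45e-08 for Het minus WT. With all 18 libraries neither passed (log2 2.04 ± 1.58 SE, edgeR adjusted p = 0.431, and 2.25 ± 1.59, adjusted p = 0.410). Over the alternatives run the adjusted p of FF minus WT ranged from 5.72e-09 to 0.635, and it passed in the 4 of 15 that left out the library labelled WT_4OHT C.

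Ikzf2 was on in the Het line. Its Het levels were 17.9, 33.7 and 39.6 CPM in ethanol and 9.32, 32.1 and 47.2 CPM in 4OHT, for A, B and C. The WT and FF libraries, 12 in all, held 2 counts together, both in FF_4OHT A (0.0793 CPM). Letter A was the lowest Het library in each treatment, and the groups did not overlap with WT or FF. In 4OHT, Het was at least 1004-fold above WT with all libraries (0 counts in WT), and 1180-fold above FF (exact 95% counting interval 326 to 9751, 2 counts in FF). The difference passed with all libraries (Het minus WT, edgeR adjusted p = 5.56e-05; FF minus Het, 5.88e-05) and under all 15 alternatives, up to 0.0139 and 0.00165. These calls were the same with and without the pair of libraries.

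Skida1 had the opposite pattern to Eya1 and Pea15a between WT and FF. WT levels were 27.5, 29.2 and 24.2 CPM in ethanol and 30.2, 23.4 and 0.0818 CPM in 4OHT. FF levels were 0.0816, 0.0711 and 31.3 CPM in ethanol and 0.0396, 0.0650 and 0 CPM in 4OHT. Het libraries ranged from 0.120 to 0.464 CPM. The 2 values out of place, 0.0818 CPM in WT and 31.3 CPM in FF, are again letter C of WT_4OHT and of FF_EtOH. In 4OHT, FF was 448-fold below WT with all libraries (interval 153 to 2175, 3 counts in FF) and 698-fold below without the pair (239 to 3389). FF minus WT passed in each (edgeR adjusted p = 0.0258 and 3.17e-08), but only in 8 of 14 alternatives, up to 0.103. Het minus WT was -5.92 ± 1.84 on the log2 scale (adjusted p = 0.0396), and -6.51 ± 0.39 (adjusted p = 4.34e-08) without the pair, and it passed in 7 of 15 alternatives, up to 0.137. Skida1 was low in Het without reaching 0: Het_4OHT held 28 counts and FF_4OHT 3, a 7.68-fold difference (2.37 to 39.5) that passed only without the pair of libraries (FF minus Het -2.83 ± 0.71, edgeR adjusted p = 0.00796, against 0.539 with all libraries).

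Pea15a followed Eya1. All WT libraries but the one labelled WT_4OHT C (27.0 CPM) had 0 counts, while FF was at 22.4, 22.0 and 0 CPM in ethanol and 25.7, 29.3 and 33.5 CPM in 4OHT. Het was at 29.2, 27.0 and 30.0 CPM in ethanol and 44.4, 30.9 and 33.2 CPM in 4OHT. The library at 0 among the FF libraries is again the one labelled FF_EtOH C. Without the pair of libraries FF and Het were at least 642-fold and 784-fold above WT in 4OHT, with edgeR adjusted p of 3.17e-08 and 2.14e-08. With all libraries neither passed (log2 1.70 ± 1.48, adjusted p = 0.489 for FF, and adjusted p = 0.439 for Het), and over 14 alternatives FF minus WT ranged from 6.69e-09 to 0.705 and passed in 4. The 3′ end of Pea15a overlaps the oppositely oriented gene Dcaf8, at 101 to 138 CPM in the 16 other libraries of all lines. Whether the counting used strand is not given in the sources used here, so the 0 in WT is a count of reads assigned to Pea15a alone.

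Complete silence in WT beside high levels in both other lines was rare. Of 22536 autosomal genes, 3 had 0 counts in the 5 WT libraries and at least 5 CPM in every FF and Het library apart from the pair. They were Eya1, Pea15a and Psma8, the last named after its values were seen. The X-linked gene Taf9b, described below, was outside this search but met the same form. The reverse, 0 counts in the 5 FF libraries with at least 5 CPM in every WT and Het library, occurred for 0 autosomal genes. The Y-linked gene Eif2s3y, outside this search, met it, at 66.4 to 101 CPM in the 5 WT libraries and 70.9 to 87.8 CPM in Het.

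Adm was on in Het and varied widely among its libraries. In Het it was at 5.09, 58.4 and 9.30 CPM in ethanol and 2.28, 20.1 and 3.12 CPM in 4OHT. WT libraries had 0 counts, except 48 counts (1.31 CPM) in the library labelled WT_4OHT C, and FF libraries lay between 0 and 0.166 CPM. The Het libraries did not overlap with the others. Within Het, letter B stood above A and C: 11.5-fold (95% counting interval 10.1 to 13.1) and 6.28-fold (5.53 to 7.15) in ethanol, and 8.79-fold (6.88 to 11.4) and 6.43-fold (5.18 to 8.06) in 4OHT. In 4OHT, Het minus WT was 4.22 ± 1.31 on the log2 scale with all libraries (edgeR adjusted p = 0.0415), but passed in 9 of 15 alternatives (0.00626 to 0.226). Among the alternatives in which it did not pass were DESeq2 and the fits without Het_4OHT B and without WT_4OHT A or B. Without the pair of libraries Het was at least 199-fold above WT (adjusted p = 0.00933). FF minus Het was -6.99 ± 1.70 (adjusted p = 0.00761), passing in all 15 alternatives, up to 0.0393.

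Letter B of Het, which held the most Adm in each treatment, also had the highest summed CPM of the 10 listed hypoxia targets. The summed CPM of the 10 listed targets was 8753 in Het_EtOH B and 7235 in Het_4OHT B, 5339 to 6716 in the other 4 Het libraries, and 5720 in the library labelled WT_4OHT C. In the remaining WT and FF libraries it was 2715 to 3806. Ldha and Pgk1, at 3264 and 2052 CPM on average in Het, weighed most in the sum. Single targets did not all follow its order. Slc2a1 reached 306 CPM in WT_4OHT against at most 257 CPM in Het, and Ankrd37 39.6 against at most 21.0 CPM. Vegfa was at 255 CPM in Het_EtOH B and 147 CPM in Het_4OHT B, against 244 CPM in WT_4OHT letter C. These targets were named after their values were seen. Bnip3, a mitophagy receptor named after its values were seen, was at 664 and 465 CPM in Het letter B, 290 to 381 CPM in the other Het libraries, and 365 CPM in WT_4OHT letter C. Their part in the Adm difference was not tested.

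**Figure D3:**
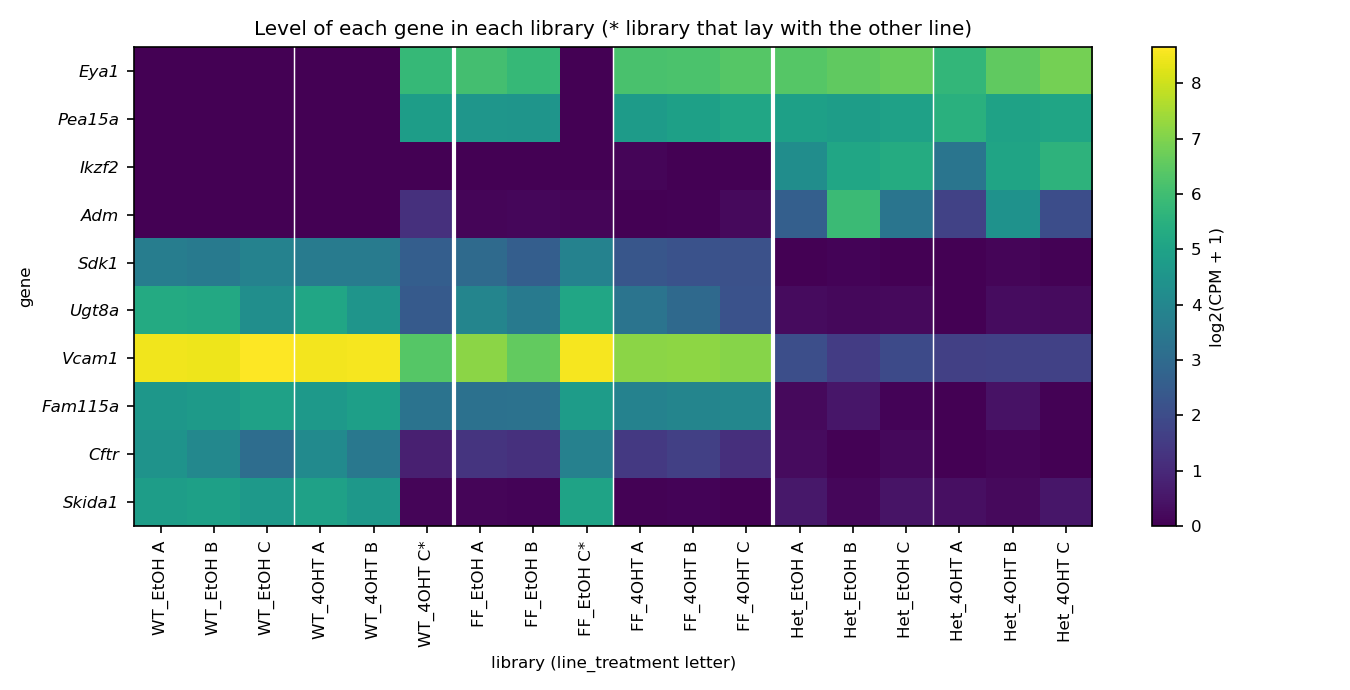
Level of the 10 genes (rows) in each of 18 libraries (columns, grouped by line and treatment), as log2(CPM + 1) on the colour scale. The starred columns resemble the other line, for example Eya1 and Pea15a at 0 in the library labelled FF_EtOH C, and Adm is brightest in letter B of Het.

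Vcam1 was the most abundant of the 10 in WT. Its WT levels were 357, 346 and 403 CPM in ethanol and 364, 368 and 82.4 CPM in 4OHT. FF was at 143, 95.0 and 374 CPM in ethanol and 141, 146 and 135 CPM in 4OHT, and Het at 1.92 to 3.19 CPM. WT, FF and Het did not overlap once the libraries labelled WT_4OHT C (82.4 CPM) and FF_EtOH C (374 CPM) were set aside. In 4OHT, Het minus WT was -6.97 ± 0.61 on the log2 scale with all libraries (edgeR adjusted p = 1.53e-06), a pooled level 123-fold lower (107 to 141), and FF minus Het was 6.03 ± 0.59 (3.34e-06). Both passed in all 15 alternatives, up to 0.00512 and 9.80e-05. FF minus WT was -0.95 ± 0.46 (adjusted p = 0.188) with all libraries and -1.38 ± 0.17 (1.17e-04) without the pair, 2.59-fold lower (2.53 to 2.65). It passed in 4 of 15 alternatives (5.74e-05 to 0.485).

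Vcam1 is also a marker of activated endothelium and of marrow stroma, so markers of those cells were read in the same libraries. The endothelial genes Cdh5 and Kdr were at 0.25 CPM or less, the stromal chemokine Cxcl12 at 0.271 CPM or less, and Emcn at 0 counts, in all groups. Pecam1, an endothelial marker that blood cells also express, ran against Vcam1: 63.2 to 67.8 CPM in the 5 WT libraries, 119 to 219 CPM in the 5 FF libraries and 330 to 430 CPM in Het. Pdgfrb, listed as stromal, was at 13.6 to 25.0 CPM in Het and at 1.43 CPM or less elsewhere. Lepr, the leptin receptor of marrow stroma in the same list, was lower in Het, with group medians of 0.697 CPM in ethanol and 0.265 in 4OHT against 2.53 to 4.44 CPM in the WT and FF groups. These 3 genes were named after their values were seen. Summed over the list, stromal genes reached 14.4 to 25.6 CPM in Het and 1.74 to 7.59 CPM in the other groups, and endothelial genes 330 to 430 CPM in Het and 63.4 to 219 CPM in the others. Their part in the Vcam1 difference was not tested. In bulk RNA, fewer cells of a type and less RNA per cell cannot be told apart.

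Sdk1 shared the stepwise pattern at a lower level. WT libraries were at 11.6, 10.6 and 13.2 CPM in ethanol and 11.2, 11.2 and 4.96 CPM in 4OHT, and FF libraries at 7.05, 4.98 and 13.4 CPM in ethanol and 3.96, 3.51 and 3.45 CPM in 4OHT. The Het libraries held 7 counts in all, 0.0832 CPM at most. In 4OHT the FF libraries lay below all WT libraries, including the one labelled WT_4OHT C. FF minus WT passed with all libraries (-1.32 ± 0.40, edgeR adjusted p = 0.0410) and without the pair (-1.62 ± 0.29, 0.00183), and in 9 of 15 alternatives, up to 0.148. Het minus WT was -7.67 ± 0.63 (adjusted p = 7.79e-07) and FF minus Het 6.35 ± 0.63 (4.19e-06). Each passed in all 15 alternatives, up to 0.00567 and 0.00113.

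Cftr was nearly off in FF as well. WT levels were 20.7, 15.5 and 7.54 CPM in ethanol and 16.7, 10.1 and 0.709 CPM in 4OHT. FF levels were 1.47, 1.28 and 12.9 CPM in ethanol and 1.74, 2.14 and 1.25 CPM in 4OHT, and Het held 18 counts in all, at most 0.193 CPM. The lowest WT library apart from the pair, WT_EtOH C at 7.54 CPM, was above the highest FF library apart from the pair, 2.14 CPM. In 4OHT, Het minus WT was -8.05 ± 1.44 (edgeR adjusted p = 0.00107) and FF minus Het 5.64 ± 1.49 (0.0101), each passing in all 15 alternatives, up to 0.0336 and 0.0439. FF minus WT was -2.41 ± 0.94 (adjusted p = 0.10) with all libraries and -2.96 ± 0.46 (6.70e-04) without the pair, 7.32-fold lower (6.12 to 8.82), and passed in 4 of 15 alternatives, with a range of 2.39e-04 to 0.299.

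Fam115a was at 22.8, 25.4 and 30.2 CPM in WT in ethanol and at 24.8, 28.8 and 8.75 CPM in 4OHT. FF was at 8.44, 8.53 and 26.9 CPM in ethanol and 13.4, 14.2 and 14.9 CPM in 4OHT, and Het at 0.451 CPM or less, with 39 counts in all. In 4OHT, Het minus WT was -7.27 ± 0.80 (edgeR adjusted p = 1.44e-05) and FF minus Het 6.71 ± 0.80 (2.01e-05), and each passed in all 15 alternatives, up to 0.0133 and 0.00176. FF minus WT was smaller and missed the threshold with all libraries (-0.55 ± 0.54, adjusted p = 0.544) and without the pair (-0.92 ± 0.39, 0.129), when FF was 1.92-fold lower (1.78 to 2.07). It passed in 1 of 15 alternatives (0.0370 to 0.869), without the pair and Het_4OHT A. Fam115c, a member of the same gene family, may share reads with it.

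Ugt8a was at 37.9, 36.2 and 18.6 CPM in WT in ethanol and at 33.5, 21.6 and 4.47 CPM in 4OHT. FF was at 14.2, 10.8 and 33.7 CPM in ethanol and 8.96, 6.76 and 3.54 CPM in 4OHT, and Het at 0.222 CPM or less, with 34 counts in all. In 4OHT, Het minus WT was -7.08 ± 0.86 (edgeR adjusted p = 3.55e-05) and FF minus Het 5.45 ± 0.85 (2.23e-04), and each passed in all 15 alternatives, up to 0.0175 and 0.00395. FF minus WT was -1.63 ± 0.60 (adjusted p = 0.0854) with all libraries and -2.10 ± 0.41 (0.00319) without the pair, and passed in 4 of 15 alternatives (5.49e-04 to 0.313). Among the 5 genes with the stepwise pattern, Ugt8a and Cftr had WT_EtOH C as the lowest library of WT apart from the pair.

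Set per kilobase of exon, to compare genes with each other, the mean level in the 5 WT libraries was 41.4 for Vcam1, 6.52 for Ugt8a, 5.46 for Skida1, 2.74 for Fam115a, 1.82 for Cftr and 1.04 for Sdk1 (CPM per kilobase). In Het it was 11.4 for Eya1, 10.1 for Adm, 8.41 for Pea15a and 2.58 for Ikzf2, with Vcam1 at 0.271 and the other 5 at 0.0623 or less. In FF it was 14.9 for Vcam1, 8.90 for Eya1, 6.88 for Pea15a, 1.95 for Ugt8a, 1.23 for Fam115a, 0.414 for Sdk1 and 0.203 for Cftr, with the other 3 at 0.0478 or less. Neighbouring ranks were not tested. The Het mean of Adm rests on letter B.

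Counted together, 8 of the 10 genes passed in Het minus WT in 4OHT with all 18 libraries, 2 higher (Ikzf2 and Adm) and 6 lower, beside 15.5% of all 12859 genes tested. All 10 passed without the pair of libraries, 4 higher and 6 lower, beside 20.5% of 13041 genes. Counts without the pair are not independent, since the pair was set apart on the values of these genes. In FF minus Het, 7 passed (5 higher in FF, 2 lower; background 27.9%), and 8 without the pair (31.0%), Skida1 being added. Eya1 and Pea15a passed in neither (FF minus Het -0.20 ± 0.23, adjusted p = 0.541, and -0.29 ± 0.16, 0.190, without the pair). In FF minus WT only Sdk1 and Skida1 passed with all libraries, 2 of 10 beside 13.1% of all genes, against 7 of 10 without the pair, beside 15.7%. The additional genes were Eya1 and Pea15a, higher in FF, and Ugt8a, Vcam1 and Cftr, lower in FF.

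The count for FF minus WT rested on single libraries. Leaving out the library labelled WT_4OHT C alone raised it from 2 to 7. Leaving out WT_4OHT A lowered it to 1, and leaving out WT_4OHT B or any of FF_4OHT A, B or C lowered it to 0.

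**Figure D4:**
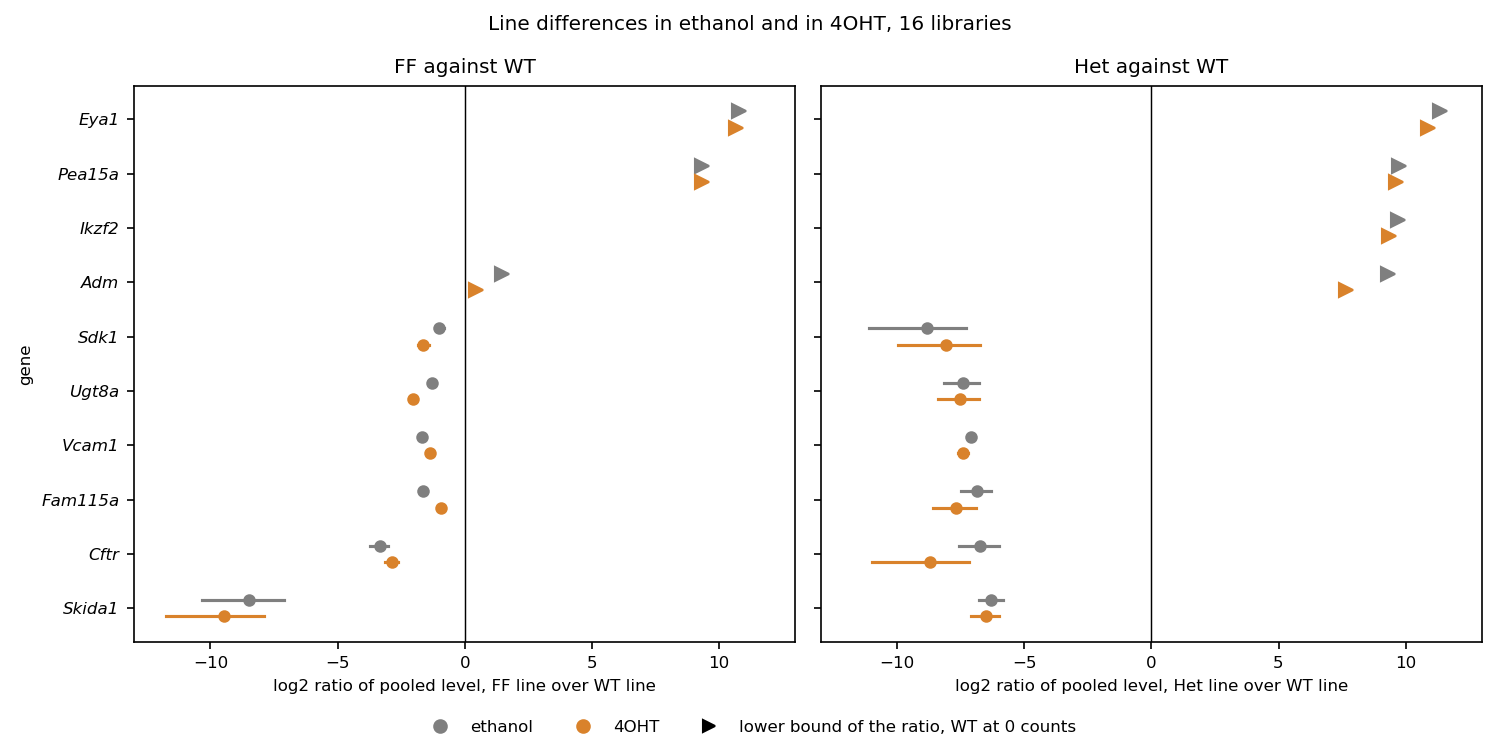
Pooled level of each gene in FF (left) and Het (right) over WT, as log2 ratio (horizontal axis), in ethanol (grey) and 4OHT (orange), over the 16 libraries without the pair named in the text. Bars are exact 95% counting intervals, and arrows are lower bounds where WT had 0 counts. Ikzf2 is not drawn for FF, where both lines were at or under 3 counts. Each gene drawn lay on the same side of 0 in ethanol, where it was chosen, and in 4OHT. For Adm in FF this rests on 5 counts in each treatment, and with all libraries in 4OHT Adm was 7.53-fold higher in WT than in FF.

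Responses to 4OHT were read within each line. In these contrasts the ethanol libraries are those that chose the genes. In WT and in Het 0 of the 10 genes passed edgeR in 4OHT minus ethanol (unadjusted p under 0.05 for 3 and 0), beside 0% and 0.0156% of all genes. DESeq2 called 0 in Het and 1 in WT, Eya1, which is at 0 in WT except in the library labelled WT_4OHT C. Without the pair of libraries no gene had an unadjusted p under 0.05 in WT or Het. The Vcam1 difference, for example, was then -0.01 ± 0.18 on the log2 scale in WT and -0.31 ± 0.19 in Het.

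In Het, where the letters pair the libraries, Adm was lower in 4OHT than in ethanol in each letter, at 2.28 against 5.09 CPM (A), 20.1 against 58.4 (B) and 3.12 against 9.30 (C). Pea15a was higher in each letter, at 44.4 against 29.2, 30.9 against 27.0 and 33.2 against 30.0 CPM. Fam115a was lower in each, on at most 15 counts a library. The remaining genes did not move the same way in every letter. The share of all genes that did was not counted, so this does not set Adm, Pea15a and Fam115a apart. A fit of the Het groups alone, with the letter as a block, was added after seeing the data. In it, Adm was at -1.43 ± 0.15 (unadjusted p = 2.16e-04, edgeR adjusted p = 0.161) and Pea15a at 0.33 ± 0.15 (adjusted p = 0.870). Without the block, over all libraries, the Adm difference was -1.51 ± 1.10 (adjusted p = 1.00).

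In FF, where 4OHT removes most Ddx41 RNA, 1 of the 10 passed with all libraries, beside 13.4% of all genes. It was Skida1 (-7.99 ± 2.40, edgeR adjusted p = 0.0387), and the call rests on the library labelled FF_EtOH C, at 31.3 CPM. Without the pair of libraries 0 passed, beside 12.0% of all genes, and Skida1 was at -0.95 ± 1.05 (adjusted p = 0.604, range over 14 alternatives 2.41e-04 to 0.877). DESeq2 with all libraries called 2, Skida1 and Sdk1. Sdk1 also passed in 3 of 15 alternatives (0.0153 to 0.255), and was at -1.22 ± 0.40 (0.0559) with all. The values nearest to the threshold without the pair, with unadjusted p under 0.05, were Sdk1 (-0.72 ± 0.30, adjusted p = 0.128), Ugt8a (-0.96 ± 0.41, 0.145) and Pea15a (0.41 ± 0.18, 0.167). The FF_4OHT libraries did not overlap with FF_EtOH A and B for these 3 genes, nor for Eya1, Fam115a and Skida1. The share of all genes without overlap was not counted, so this does not set the 3 genes apart. In FF_EtOH A and B, Sdk1 was 6.02 ± 1.47 CPM (SD, n = 2) and in FF_4OHT 3.64 ± 0.28 CPM (n = 3).

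Differences between the responses were tested as interactions. With all libraries 0 of 10 passed in FF response minus WT response (3 with unadjusted p under 0.05; background 2.30%), in FF response minus Het response (1; 2.50%) and in Het response minus WT response (3; 0%). DESeq2 called Eya1 and Skida1 in the first, Skida1 in the second and Eya1 in the third. Without the pair of libraries the edgeR counts were 0 as well, with 0, 1 and 0 unadjusted p under 0.05.

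Across the 18 libraries the genes moved in blocks, given here as Pearson r of log2 CPM. Libraries share line and depth, so r mostly restates the line patterns. Eya1 and Pea15a had r = 0.997, and each had r = -0.968 and -0.969 with Skida1. Vcam1 and Sdk1 had 0.988, Sdk1 and Fam115a 0.982, and Ikzf2 and Vcam1 -0.970. Cftr lay between Skida1 (0.719) and Ugt8a (0.958).

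Other genes had nearly the same profile. The closest to Eya1 was Taf9b (r = 0.997), a TFIID-related factor on the X chromosome, at 0 CPM in the 5 WT libraries, 14.9 to 16.4 CPM in FF and 7.90 to 14.3 CPM in Het, and next Chdh, choline dehydrogenase (0.995). Pea15a was closest to Maged2 and Taf9b (both 0.994). Skida1 was closest to Prdm16, a transcription factor of blood stem cells and brown fat (0.988), at 10.0 to 13.7 CPM in the 5 WT libraries, 0 in FF and 0.111 to 0.321 CPM in Het, and to C130026I21Rik (0.984). Ikzf2 was closest to Fam155a (0.996) and to the lysyl hydroxylase Plod2 (0.993), at 9.38 to 47.4 CPM in Het and 0.103 CPM or less in WT and FF. Adm was closest to the mucin Muc2 (0.980), which reached 9.65 CPM in Het_EtOH B and 1.06 CPM in WT_4OHT letter C.

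For the stepwise genes the closest were Ralgps2 for Sdk1 (0.989) and for Ugt8a (0.988), Anxa11 for Sdk1 (0.987) and the sialyltransferase St8sia5 for Ugt8a (0.979). Vcam1 was closest to Ano4 (0.988) and to Camp, the cathelicidin of neutrophil granules (0.986), at 72.4 to 107, 14.0 to 53.4 and 0.299 to 1.57 CPM in WT, FF and Het. Fam115a was closest to B4galt6, a lactosylceramide synthase (0.986), and Olfm4 (0.984), and Cftr to thyroglobulin, Tg (0.970), and Naa60 (0.967).

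Neighbours on the chromosome were read as well. Of the 40 nearest protein-coding genes, 2 on each side, 22 were tested. In Het minus WT in 4OHT 3 were higher and 3 lower, beside 15.5% of all genes called, and in FF minus WT 0 were higher and 2 lower, beside 13.1%. Without the pair of libraries 2 were higher and 6 lower (20.5%), and 1 higher and 3 lower (15.7%). Fam115c, 22.7 kb from Fam115a, was at 3.18 to 5.44 CPM in the 5 WT libraries, 0.897 to 2.50 CPM in the 5 FF libraries and at most 0.111 CPM in Het (Het minus WT -5.95, edgeR adjusted p = 1.37e-04, and -6.17, 1.83e-05, without the pair). A930004D18Rik, 2.9 kb from Skida1, was at 4.21 to 8.04 CPM in WT, at most 0.541 CPM in FF and at most 0.630 CPM in Het. It passed only without the pair (FF minus WT -3.49, adjusted p = 6.11e-04, against 0.0935 with all libraries). Mllt10, 6.2 kb from Skida1 on the other side, was at 119 to 143, 90.0 to 119 and 63.4 to 109 CPM. Sbf2, 12.7 kb from Adm, was higher in Het (1.52, adjusted p = 0.00461). Msc beside Eya1, Erbb4 beside Ikzf2 and Ndst4 beside Ugt8a were at 0 CPM in the 16 libraries.

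Partners and relatives of the 10 genes were read from lists, in FF minus WT and Het minus WT in 4OHT with all libraries. Over all tested genes the median log2 differences were -0.00362 and 9.67e-04. Of all tested genes 13.1% passed in FF minus WT and 15.5% in Het minus WT. A list count near these shares does not set its list apart. In the list of Eya, Dach, Pax and Sine oculis homeodomain genes 6 of 14 genes were tested, of which 1 was higher and 1 lower in FF (median 0.245) and 1 higher in Het (0.0413). Six4, a homeodomain partner of Eya proteins, was higher in both (1.54, edgeR adjusted p = 0.0115, and 1.32, 0.0186), and Six5 lower in FF (-1.44, 0.00743). Eya3, the relative that is broadly expressed, was at 95.9, 100 and 91.2 CPM on average in WT, FF and Het, and did not pass. Of the Ikaros family 3 of 4 were tested and none passed, with Ikzf1, the founding member in blood, at 259, 280 and 268 CPM (list medians 0.101 in FF and -0.489 in Het).

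Of 7 PEA15 partners, all tested, 1 was higher and 1 lower in FF (median -0.158) and 0 in Het (0.00751). These were the caspase Casp8 (0.37, adjusted p = 0.0408, and 0.0865 without the pair of libraries) and the adaptor Fadd (-0.44, 0.0175). Of 9 adrenomedullin ligand, receptor and processing genes 6 were tested, with 0 calls in FF (-0.302), and 2 higher and 1 lower in Het (0.350). The related ligand Adm2 (3.65, 0.00336) and the receptor Calcrl (1.55, 0.0114) were higher in Het, and the amidating enzyme Pam lower (-0.64, 0.0196). Of the 10 hypoxia targets, 0 passed in FF (-0.834) and 4 were higher in Het (0.776), among them Ldha (0.84, 0.00382), Car9 (0.83, 0.0215, and 0.0529 without the pair) and Pdk1 (0.84, 0.0230). Without the pair of libraries the medians were -0.0304 and 1.14, and 5 were higher in Het, beside 20.5% of all genes called.

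Among 9 immunoglobulin-domain adhesion genes 7 were tested, 3 higher and 1 lower in FF (median 0.619) and 3 higher in Het (1.09). Icam2, the lower one, was at -0.63 (adjusted p = 0.0149), and was named after its values were seen. Jam2 rose by 2.06 in FF and 4.04 in Het (adjusted p = 0.0319 and 1.54e-04), Jam3 by 1.64 and 3.10 (0.0265 and 2.20e-04), and Icam1 by 0.62 in FF (0.0111). Of the Vcam1 receptor integrins 3 of 4 were tested, with 0 calls in FF (0.0233) and 1 higher in Het (0.0571). It was Itgb7 (2.86, 5.89e-06), at 13.7, 10.7 and 113 CPM on average in WT, FF and Het. Of the galactolipid and sphingolipid enzymes 9 of 10 were tested, with 0 calls in FF (0.221) and 1 lower in Het (-0.0278), B4galt6 (-2.36, 3.25e-05).

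Of the Cftr partners and anion channels 9 of 12 were tested, 0 calls in FF (-0.0454), 1 higher and 1 lower in Het (-0.0571): Best1 (3.65, adjusted p = 0.00195) and the scaffold Slc9a3r2 (-1.21, 0.00432). Of the TCAF list only Fam115c, described above, was tested. Of 6 SKI and DACH relatives 4 were tested, and Ski was higher in FF (0.61, 0.0130) and Het (0.54, 0.0190), with list medians of 0.500 and 0.0680. Of the 12 MLL-AF9 and self-renewal genes 11 were tested, 2 higher and 1 lower in FF (0.128) and 2 higher and 3 lower in Het (-0.0992). Hoxa5 was higher in FF and lower in Het (0.85, 0.00106, and -0.83, 7.33e-04), as was Hoxa10 (0.40, 0.00818, and -0.69, 6.04e-05), and the aminotransferase Bcat1 was lower in FF (-2.04, 1.48e-04).

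Without the pair of libraries, when the medians over all genes were 0.00717 in FF and 0.00815 in Het, several lists had other calls. Of all tested genes, 15.7% then passed in FF minus WT and 20.5% in Het minus WT. The genes named here were chosen because their calls changed. In FF minus WT, Ramp3, an adrenomedullin receptor subunit (-1.63, edgeR adjusted p = 0.0250), was added as lower, and Pecam1 (1.06, 7.14e-05) and the sulfotransferase Gal3st1 (3.32, 0.0134) as higher. With all libraries Pecam1 had an adjusted p of 0.742 and Gal3st1 of 0.405, and Ramp3 did not pass either. The counts then were 0 higher and 1 lower among adrenomedullin genes, 4 and 1 among adhesion genes, 1 and 0 among galactolipid and sphingolipid enzymes, and 0 and 1 among PEA15 partners.

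In Het minus WT without the pair, the genes added as higher were Dach2 (2.27, edgeR adjusted p = 0.0122), which is in the Eya and SKI lists, the peptide gene Calca (1.02, 0.0346), Bnip3 (2.29, 7.73e-05) and the oxygen sensor Egln3 (3.12, 6.73e-04). Added as lower were Ikzf5 of the Ikaros family (-0.59, 0.0365), Ramp3 (-1.77, 0.0105), Ano6 (-0.65, 0.0183) and Hoxa7 (-0.81, 0.0202). The counts were 2 higher and 0 lower in the Eya list and in the SKI list, 0 and 1 in the Ikaros family, and 3 and 2 among adrenomedullin genes. They were 1 and 2 among Cftr partners and 2 and 4 among MLL-AF9 genes. The counts of the other lists were as with all libraries, apart from the hypoxia targets given above.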

How the data were processed

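The table the authors deposited holds raw counts, whole numbers without scaling, by gene symbol in 18 libraries. HISAT2 2.0.5, featureCounts 1.5.2, Subread, FastQC 0.11.7, CASAVA 1.4 and build mm10 are named, per the submitters' processing notes. Annotation, strand setting and multi-mapping rule: not given in the sources used here. The 10 genes, the gene lists and the tests were chosen with earlier results of these data known. Groups came from the labels. The deposited counts were tested with edgeR 4.0.16 (R 4.3.3): TMM, filterByExpr with a minimum count of 10, 1 mean per group, robust quasi-likelihood F test, Benjamini-Hochberg over all genes tested, threshold 0.05. Standard errors of log2 differences derive from the F statistic. The test was checked on simulated data. DESeq2 1.42.0 was an alternative. Ratios of pooled counts carry exact 95% intervals, or a floor of 3 counts over a group at 0, and cover counting error only. The ranges of adjusted p in the text are over the alternatives run for that gene and comparison. Fits that leave out letter C of FF_EtOH and of WT_4OHT were added after seeing the data. So was the fit of the Het groups alone with the letter as a block.

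Of 24062 symbols, 22708 matched exactly 1 gene in GENCODE M21, and 914 more through 1 RefSeq synonym, Fam115a as Tcaf1. All 10 genes were named; from each list up to 3 genes with the smallest adjusted p in FF minus WT or Het minus WT were named, or the most abundant where none passed; for each gene the 2 most similar profiles (log2 CPM, prior count 2) were named, except that the second for Adm is not reported here. Deviations of same-letter libraries from their group means correlated at 0.476, 0.697 and 0.402 in Het (A, B, C). By the rule that every letter exceed 0.1, the letters pair the Het libraries. In WT (0.389, -0.023, 0.250) and FF (0.167, 0.182, 0.067) not every letter exceeded 0.1. A replicate block with the Het groups alone called 0 of the 10 genes for 4OHT minus ethanol, as without it. Over all genes it called 5, all lower, against 2 lower in the fit of all libraries without a block. Promoter windows are RefSeq entries for GRCm38.p6.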

Additional observations from a re-analysis of the deposited data

How the results depend on the processing

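The number of the 10 genes called was within 1.5 times its value with all libraries, under every alternative, for Het minus WT in 4OHT (8; 6 to 10 with 1 library left out), FF minus Het in 4OHT (7; 7 with 1 library left out) and Het 4OHT minus ethanol (0). For FF minus WT in 4OHT, 2 with all libraries, it was 1 with no count filter, 1 with a replicate block, 1 with the compared groups alone, 7 when letter C of FF_EtOH and of WT_4OHT (the pair) were left out, 8 when Het_4OHT A was left out too, 7 when WT_EtOH C was left out in place of it, and 0 to 7 with 1 library left out. For FF 4OHT minus ethanol, 1 with all libraries, it was 0 with no filter, 2 with DESeq2, 0 with a replicate block, 0 with the compared groups alone, 0 without the pair, 0 with WT_EtOH C left out as well, and 0 to 2 with 1 library left out. DESeq2 called 1 gene for WT 4OHT minus ethanol, 2 for the FF against WT response, 1 for FF against Het and 1 for Het against WT, where edgeR called 0. The replicate block left the other counts within 1.5 times. Among the differences of single genes in the 3 line contrasts in 4OHT and in FF 4OHT minus ethanol, directions changed only where neither value passed the threshold. For FF 4OHT minus ethanol, without the pair, without it and Het_4OHT A, and without it and WT_EtOH C, Vcam1 (-0.53 with all libraries) was at 0.246, 0.251 and 0.250, Fam115a (-0.05) at 0.739, 0.746 and 0.743, and Cftr (-1.60) at 0.326, 0.333 and 0.329. For FF minus WT in 4OHT, Adm (-2.77) was at 4.056, 4.061 and 4.054, fitted values that depend on the prior count since WT was then at 0. With 1 library left out, FF minus WT ranged from -4.353 to 4.046 for Adm (without WT_4OHT C) and from 0.000 (without FF_4OHT A, which held both its FF counts) to 3.483 for Ikzf2, and FF minus Het from -0.465 to 0.055 for Eya1 (without Het_4OHT C). FF 4OHT minus ethanol then ranged from 0.000 to 3.483 for Ikzf2 and from -2.080 to 0.067 for Adm (both without FF_4OHT A), and, without FF_EtOH C, reached 0.246 for Vcam1 (lowest -0.874), 0.739 for Fam115a (-0.322) and 0.323 for Cftr (-2.061). Causes of these differences were not tested, other than that the library left out is the one named. The letters of WT and FF did not meet the rule for pairing, which does not show that they are unrelated. Scaling by library size in place of TMM moved the mean of Pea15a in Het_EtOH from 28.7 to 30.3 CPM. Depth limits what 0 counts can show: at most 0.0190 CPM over the 5 WT libraries and 0.0222 CPM over the 5 FF libraries.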
